A study of Mus musculus with 16 samples.

Results

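The cell cycle genes described here are 40 mouse genes, of which 15 act in or before S phase, the stretch of the cell cycle in which DNA is copied, 24 act in mitosis, when the copies are separated, and 1, Ccnd1, encodes cyclin D1, the cyclin of early G1. A probe was found through its transcript accession for 39 of the 40, and Gins1 was the exception. These 39 stand among 33269 gene names on the array. Where a gene had several probes, as 9 of the 39 did, the probe with the highest mean over all arrays stood for it. Proliferating cells load the MCM helicase on replication origins in G1 and open it in S phase, with their nucleotides made by ribonucleotide reductase and thymidylate synthase. Cyclin A and cyclin B with Cdk1 then drive entry into mitosis, and the kinases Plk1, Aurka, Aurkb and Bub1 guide the spindle. In adult liver most hepatocytes rest outside the cycle.

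The mice were C57Bl/6 females, and RNA was taken either from the liver or from the inflammatory cells within it. Every mouse, controls included, had been fed an atherogenic high-fat diet for 40 weeks, which the labels give as a model of cirrhosis. Treated mice received adipose tissue-derived stem cells (ADSC) grown from inguinal fat of GFP-transgenic mice, in 2 injections of 100000 cells beneath the spleen capsule, and controls are labelled as treated with phosphate-buffered saline (PBS). Collection followed the final injection by 2 weeks. Each of the 4 groups held 4 one-colour arrays, and the same numbers, 11 to 14 for PBS and 7 to 10 for ADSC, recur in liver and inflammatory cells. Nothing in the labels ties a number to an animal, so p-values measure the spread between these samples, which may be technical. The extraction text in the labels speaks of tumor-infiltrating cells and of blood, so how the inflammatory cells were obtained is not settled by it.

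Promoter sequences are shown because S phase and mitotic genes are textbook examples of genes with different promoter elements, and the arrays compare these phases. The RefSeq table for GRCm38.p6 held windows for 32 of the 40 members, each with 250 bases before and 50 after the start. On both strands 3 motifs were searched: the cell cycle genes homology region or CHR (TTTGAA or TTCGAA), the CCAAT box (CCAAT), and an E2F site (TTTCCCGC, TTTCGCGC, TTTGCCGC, TTTGGCGC). The CHR and the CCAAT box are textbook elements of genes expressed in G2 and mitosis, and E2F sites are those of G1 and S phase genes. The stretches shown end at the base before the start and run 5′ to 3′ on the gene's strand, with motif matches on either strand in capitals. Cdk1, Ccnb2 and Top2a are shown as mitotic genes, and Cdc6, Mcm5 and Mcm6 as S phase genes. They lie at chr10:69352913-69353092 (- strand), chr9:70421555-70421734 (- strand), chr11:99024190-99024369 (- strand), chr11:98907971-98908150 (+ strand), chr8:75109329-75109508 (+ strand) and chr1:128359706-128359885 (- strand).
Cdk1: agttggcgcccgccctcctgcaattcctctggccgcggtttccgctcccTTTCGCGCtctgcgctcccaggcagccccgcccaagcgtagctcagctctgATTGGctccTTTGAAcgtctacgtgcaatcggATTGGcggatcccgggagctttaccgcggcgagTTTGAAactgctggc
Ccnb2: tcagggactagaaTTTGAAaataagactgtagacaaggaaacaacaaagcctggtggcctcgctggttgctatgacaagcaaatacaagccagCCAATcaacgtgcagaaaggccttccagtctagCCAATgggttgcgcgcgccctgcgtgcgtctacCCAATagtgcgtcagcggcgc
Top2a: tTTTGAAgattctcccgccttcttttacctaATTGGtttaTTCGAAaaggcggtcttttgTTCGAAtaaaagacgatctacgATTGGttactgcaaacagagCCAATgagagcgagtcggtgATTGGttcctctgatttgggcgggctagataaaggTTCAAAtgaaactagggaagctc
Cdc6: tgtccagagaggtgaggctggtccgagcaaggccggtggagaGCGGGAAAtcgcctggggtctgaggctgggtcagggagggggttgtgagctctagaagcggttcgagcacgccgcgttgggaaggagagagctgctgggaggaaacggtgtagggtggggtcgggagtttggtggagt
Mcm5: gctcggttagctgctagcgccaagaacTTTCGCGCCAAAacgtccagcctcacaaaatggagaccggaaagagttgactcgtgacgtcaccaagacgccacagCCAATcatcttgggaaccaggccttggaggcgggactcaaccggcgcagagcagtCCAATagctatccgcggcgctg
Mcm6: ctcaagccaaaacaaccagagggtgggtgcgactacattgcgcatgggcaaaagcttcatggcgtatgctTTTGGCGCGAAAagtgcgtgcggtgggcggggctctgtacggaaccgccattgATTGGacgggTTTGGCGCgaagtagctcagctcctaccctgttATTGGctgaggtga

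In Cdk1, counting back from the start, CHR matches begin at positions -71 and -15, CCAAT matches on the opposite strand at -80 and -48, and the E2F match at -131. In Mcm5 the E2F matches at -153 and -149 lie on opposite strands, overlap and form 1 run of capitals. Mcm6 holds such a pair at -110 and -106. Over the members, a CHR match was present in 14 of 20 mitotic windows and 3 of 14 S phase windows, against 19.2% of all 32851 windows. An E2F match was present in 5 of 14 S phase windows and in 1 of 20 mitotic windows, that of Cdk1, against 2.26% of all windows. A CCAAT match was present in 17 of 20 mitotic and 10 of 14 S phase windows, against 37.4% of all. These matches describe the letters of the windows and were not measured as binding.

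**Figure D1:**
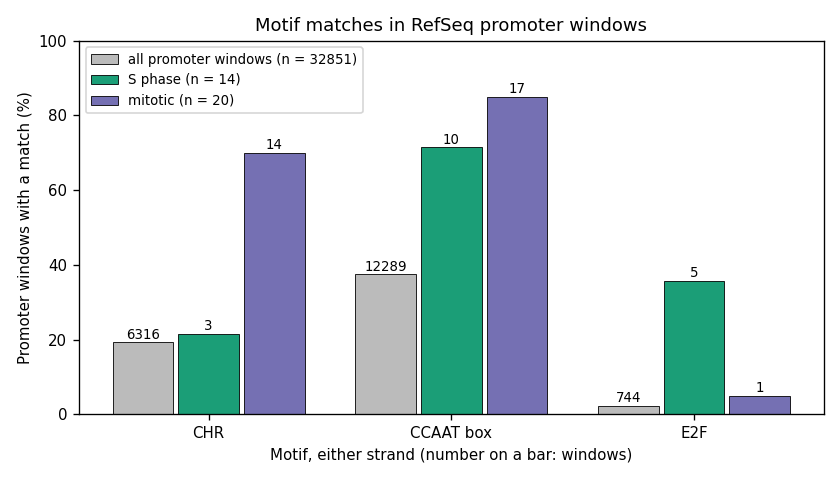
Share of RefSeq promoter windows with at least 1 match to each motif on either strand (y axis, percent), for all 32851 windows, 14 S phase windows and 20 mitotic windows; the number on each bar counts windows. The CHR bar is tallest for mitotic genes (14 of 20) and the E2F bar for S phase genes (5 of 14).

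Values are log2 processed signal minus the array's 75th percentile, so 0 is the level of a probe at that percentile. Between 51.6% and 66.3% of spots were well above background on an array, no spot was saturated (0 on every array), and arrays of a group correlated at 0.921 to 0.984. The labelled tissues were checked against marker lists. The mean over 7 hepatocyte markers was 5.49 to 6.72 on liver arrays and 0.75 to 2.84 on inflammatory cell arrays, where 6 or 7 of the 7 were still well above background. The mean over the 6 B cell markers tested ran the other way, from -2.81 to -1.94 in liver and from 0.32 to 2.40 in inflammatory cells. Pancreatic enzyme transcripts were also present on the inflammatory cell arrays. Their mean over 10 genes was 6.30, 8.51 and 8.49 on PBS 11, PBS 13 and ADSC 10, and between -1.81 and 2.36 on the other inflammatory cell arrays. Of 14 S phase genes with a probe, 11 were above background on all 4 liver PBS arrays, 12 in liver ADSC, 13 in inflammatory cells PBS and 12 in inflammatory cells ADSC. Of 24 mitotic genes these counts were 15, 17, 21 and 16. In bulk RNA, fewer cells of a type and less RNA per cell cannot be told apart.

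**Figure D2:**
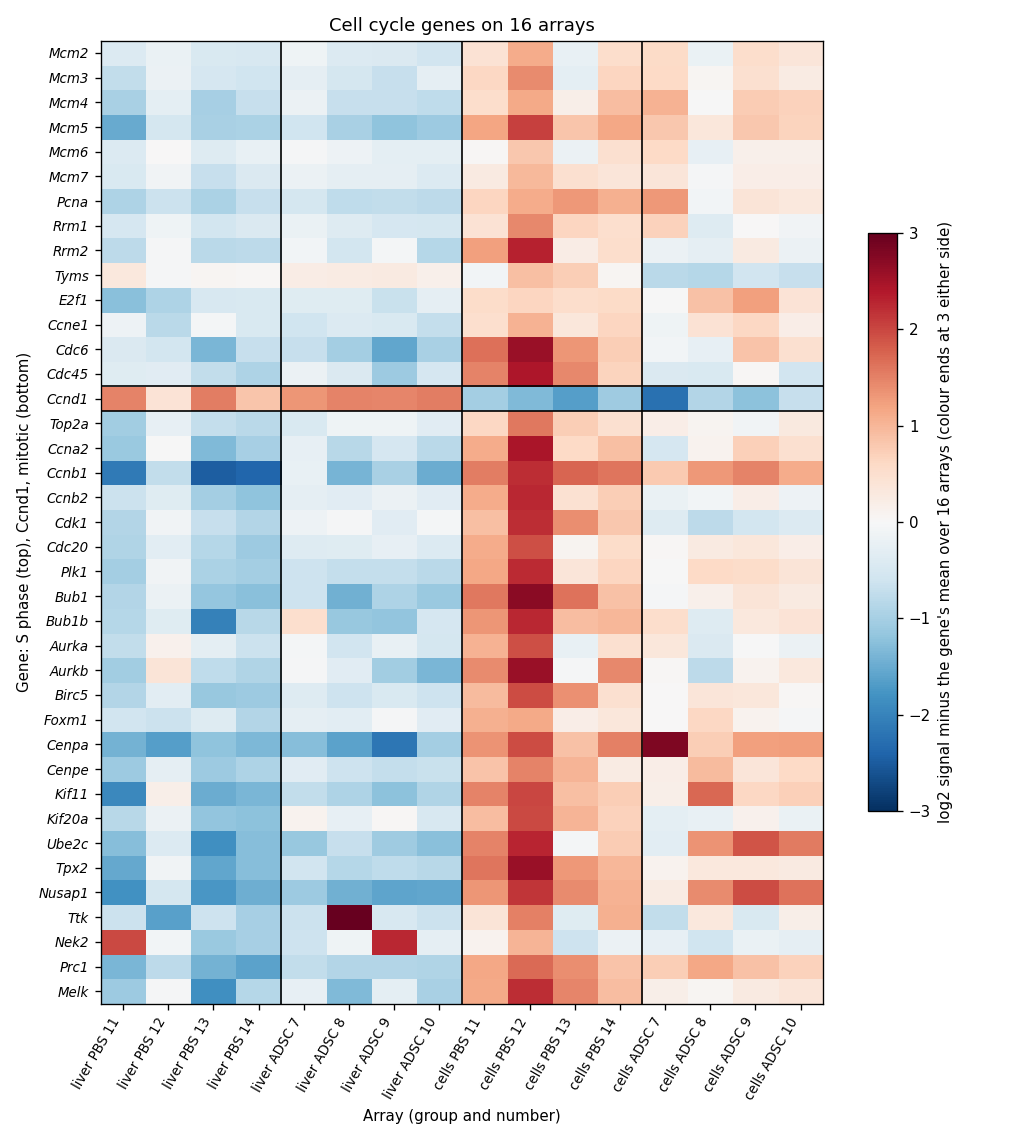
Log2 signal of the 39 members (rows, S phase above, Ccnd1 between the lines, mitotic below) on 16 arrays (columns), each row shown relative to its own mean over the 16 arrays; colours end at 3 log2 units either side. Inflammatory cells PBS 12 is the darkest red column, and Ccnd1 is the row with liver high and inflammatory cells low.

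Inflammatory cells were first set against liver, over 8 arrays of each. Of 37 members tested by limma, 34 were higher in inflammatory cells and 2 were lower, against 49% of 22147 genes higher and 35.2% lower. The median difference was 1.46 on the log2 scale for 23 mitotic genes and 0.94 for 13 S phase genes, against 0.36 for all genes tested. These values average the difference in PBS and that in ADSC. In PBS the median was 2.04 for mitotic and 1.16 for S phase genes, and in ADSC 0.80 and 0.79, while over all genes tested it was 0.36 and 0.37. Inflammatory cells had the higher mean for 23 of 23 mitotic genes in PBS and 20 of 23 in ADSC, and for 13 of 13 and 12 of 13 S phase genes. The test of the treatment effect between sample types is given further on. Since 84.2% of all genes passed in either direction, the count of members that passed says little, and the sizes are given instead. In 14 of 23 mitotic genes and 6 of 13 S phase genes, every inflammatory cell array was above every liver array, against 34% of all genes.

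By the measured means over both treatments, Ccnb1, Cenpa and Nusap1 had the largest mitotic differences, with Ccnb1 set against a liver level mostly at background. Ccnb1 encodes cyclin B1, the partner of Cdk1 at mitotic entry. Its level was -5.02 at the lowest, -4.00 at the median and -2.78 at the highest of 8 liver arrays, and -1.79, -1.05 and -0.34 in inflammatory cells, a difference of 2.95 ± 0.25 (SE, limma adjusted p = 1.63e-08). In liver its probe was well above background on 1 PBS and 1 ADSC array, so the size and rank of this difference are not exact. Cenpa, the histone H3 variant that marks centromeres, was at -2.91, -2.12 and -1.76 in liver and at 0.02, 0.57 and 2.06 in inflammatory cells, a difference of 2.93 ± 0.26 (limma adjusted p = 2.9e-08). Nusap1, a spindle microtubule protein, was at -2.88, -2.59 and -1.60 in liver and -0.83, 0.35 and 1.07 in inflammatory cells (2.80 ± 0.25, limma adjusted p = 3.36e-08). None of these 3 genes overlapped between the sample types. Cdk1 had a small difference over both treatments, 0.79 ± 0.19 (limma adjusted p = 0.00111), which averages 1.96 in PBS and -0.38 in ADSC. Its arrays overlapped. With quantile normalization the average was 0.11 and did not pass (limma adjusted p = 0.649). Aurka, the kinase of the spindle poles, differed by 0.73 ± 0.25 (limma adjusted p = 0.0124). Nek2, a centrosome kinase, differed by -0.25 ± 0.46 and did not pass (limma adjusted p = 0.62). Its liver level was -0.75 on PBS 11 and -0.47 on ADSC 9, and -3.84 to -2.80 on the other liver arrays.

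Among the S phase genes Mcm5, Cdc6 and Pcna had the largest measured differences. Mcm5 is a subunit of the replicative helicase. It was at -0.90, -0.35 and 0.08 (lowest, median, highest) in liver and at 0.95, 1.44 and 2.66 in inflammatory cells, without overlap (1.96 ± 0.18, limma adjusted p = 5.1e-08). Cdc6, which loads that helicase on origins, was at -4.72, -4.01 and -3.61 in liver and -3.41, -2.37 and -0.58 in inflammatory cells (1.83 ± 0.25, limma adjusted p = 4.39e-06). Its probe was above background on 1 of 4 liver PBS arrays and 0 of 4 liver ADSC arrays, so its size and rank are not exact. In ADSC, where 3 inflammatory cell arrays were above background, the measured mean was 2.50-fold higher in inflammatory cells, which is likewise not exact. Pcna, the sliding clamp of the DNA polymerases, was at 2.81, 3.01 and 3.23 in liver and 3.67, 4.61 and 5.06 in inflammatory cells (1.51 ± 0.17, limma adjusted p = 5.26e-07). Averaged over both treatments, the smallest differences were those of Tyms, Mcm6 and Mcm7. Tyms, the thymidylate synthase, had means in opposite order under the treatments, at 1.38 in inflammatory cells and 1.07 in liver under PBS, and 0.24 and 1.19 under ADSC. The average over both was -0.32 ± 0.14 (limma adjusted p = 0.0457), with overlap. That call was lost with quantile normalization at -0.19 (limma adjusted p = 0.228), with the percentile over detected probes at -0.0037 (0.981), and with no filter or the mean of probes. It was also lost for 12 of the 16 arrays left out singly, liver PBS 11 among them. Mcm6 and Mcm7, further helicase subunits, differed by 0.44 ± 0.16 and 0.70 ± 0.13 (limma adjusted p = 0.0162 and 9.43e-05).

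Ccnd1 went the other way and without overlap, which 23.7% of all genes did in that direction. It was at 2.57, 3.63 and 3.70 in liver and at -0.09, 1.01 and 1.48 in inflammatory cells. Its difference was -2.53 ± 0.22, or 5.76-fold higher in liver (limma adjusted p = 2.17e-08).

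ADSC was then set against PBS in the inflammatory cells, to ask what the injected cells did to the infiltrate. Of 22 mitotic genes tested, 21 had an estimate below 0, and 1 of them passed, Cdk1, the kinase that starts mitosis. On PBS arrays 11 to 14 Cdk1 was at -1.23, 0.08, -0.72 and -1.32, and on ADSC arrays 7 to 10 at -2.52, -2.90, -2.69 and -2.53. The highest ADSC array lay below the lowest PBS array, and the probe was well above background on 4 PBS and 2 ADSC arrays. Cdk1 fell by 1.86 ± 0.31 on the log2 scale, a 3.63-fold lower level (limma adjusted p = 0.019). It was the 1 member called of 36 tested, against 1.22% of 20179 genes in either direction, 1.09% lower and 0.134% higher. The call was lost on leaving out ADSC 8, ADSC 9 or ADSC 10 (adjusted p = 0.0511, 0.0714 and 0.0542). It was lost too with normexp background correction, at -0.80 (adjusted p = 0.111), and without the 3 arrays rich in pancreatic transcripts, at -2.08 (adjusted p = 0.136).

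The next mitotic genes by p-value were Kif20a, Bub1, Melk, Tpx2 and Bub1b, and none of the 5 passed the threshold over all genes. Kif20a, a kinesin of cytokinesis, was at -0.33, 0.73, -0.25 and -0.56 on the PBS arrays and at -1.56, -1.49, -1.15 and -1.47 on the ADSC arrays. The groups did not overlap, and the difference was -1.31 ± 0.29 (limma adjusted p = 0.0601). Bub1, a kinase of the spindle checkpoint, was at -1.71, -0.60, -1.67 and -2.43 against -3.34, -3.16, -2.93 and -3.04. It did not overlap either, with a difference of -1.51 ± 0.34 (limma adjusted p = 0.0656), and 2 of 4 ADSC arrays were above background. Tpx2, which activates Aurka on the spindle, was at -0.56, 0.42, -0.89 and -1.17 against -2.06, -1.86, -1.87 and -1.90 (-1.37 ± 0.32, limma adjusted p = 0.0713). Melk, a kinase abundant in dividing cells, and Bub1b, the checkpoint protein BubR1, differed by -1.22 ± 0.28 and -1.16 ± 0.33 (limma adjusted p = 0.0705 and 0.131). Ccnb2, encoding cyclin B2, was at 1.78, 2.91, 1.10 and 1.40 against 0.44, 0.57, 0.86 and 0.51 (-1.20 ± 0.35, limma adjusted p = 0.138).

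In 10 of 22 mitotic genes tested, every ADSC array lay below every PBS array, and in 2 of 13 S phase genes, against 6.67% of all genes. In 0 of either was every ADSC array higher, against 3.69% of all genes. The 10 were Cdk1, Kif20a, Bub1, Melk, Tpx2, Bub1b, Ccnb2, Birc5, Top2a and Ccnb1, and the S phase genes were Tyms and Mcm5. Birc5 encodes survivin, a subunit of the chromosomal passenger complex, and Top2a the topoisomerase that untangles chromosomes. Other mitotic genes showed no such separation. Ube2c, the ubiquitin-conjugating enzyme of the anaphase-promoting complex, was at 1.81, 2.60, 0.25 and 1.08 on PBS arrays and at -0.01, 1.66, 2.19 and 1.87 on ADSC arrays, a difference of -0.0065 with a 95% interval from -1.23 to 1.22. Cenpa differed by 0.081 (95% interval -0.83 to 0.99) and Nusap1 by -0.17 ± 0.38. The intervals of Ube2c and Cenpa include the mitotic median given further on.

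A pair of members was above background on 3 PBS arrays and 0 ADSC arrays, and so reached fewer arrays than the minimum of 4 and was not tested. Cdc45, part of the active replicative helicase, had a mean of -2.80 in PBS and -4.66 in ADSC and was 3.03-fold lower in ADSC, a fold that is not exact. Aurkb, the kinase of the chromosomal passenger complex, had means of -2.30 and -3.74 and was 2.50-fold lower, likewise not exact. Its groups overlapped, with PBS 13 at -3.69 below ADSC 7, ADSC 9 and ADSC 10 at -3.62, -3.56 and -3.35. Ttk, a checkpoint kinase, was well above background on 0 of the 8 inflammatory cell arrays.

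Among the 13 S phase genes tested in inflammatory cells, Cdc6, Rrm2 and Tyms had the lowest estimates, and none passed. Tyms was at 0.89, 1.87, 1.71 and 1.03 on PBS arrays and at 0.16, 0.11, 0.40 and 0.28 on ADSC arrays. The groups did not overlap, and the difference of -1.14 ± 0.26 missed the threshold (limma adjusted p = 0.0694). Cdc6 was at -1.52, -0.58, -1.84 and -2.43 against -3.24, -3.41, -2.32 and -2.68, with ADSC 9 above PBS 14 (-1.32 ± 0.39, limma adjusted p = 0.14). Rrm2 and Rrm1 are the subunits of ribonucleotide reductase. Rrm2 was at -0.43, 0.67, -1.42 and -1.12 against -1.82, -1.92, -1.38 and -1.84, with ADSC 9 above PBS 13 (-1.17 ± 0.40, limma adjusted p = 0.188). Rrm1 and Pcna differed by -0.70 ± 0.30 and -0.56 ± 0.30 (limma adjusted p = 0.256 and 0.339), and Mcm5 by -0.65 ± 0.28 (0.254).

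The other helicase subunits differed less. Mcm4 was at 2.43, 3.05, 2.10 and 2.83 on PBS arrays and 2.95, 1.91, 2.67 and 2.61 on ADSC arrays, overlapping widely (-0.067 ± 0.29). Mcm2, Mcm3, Mcm6 and Mcm7 had differences of -0.15, -0.26, -0.12 and -0.35, and E2f1, a transcription factor of S phase entry, of 0.060, which turned negative under 3 alternatives. Ccnd1 was at 1.13, 0.84, 0.50 and 1.09 against -0.09, 1.27, 0.92 and 1.48, a difference of 0.0021 with a 95% interval from -0.74 to 0.74.

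**Figure D3:**
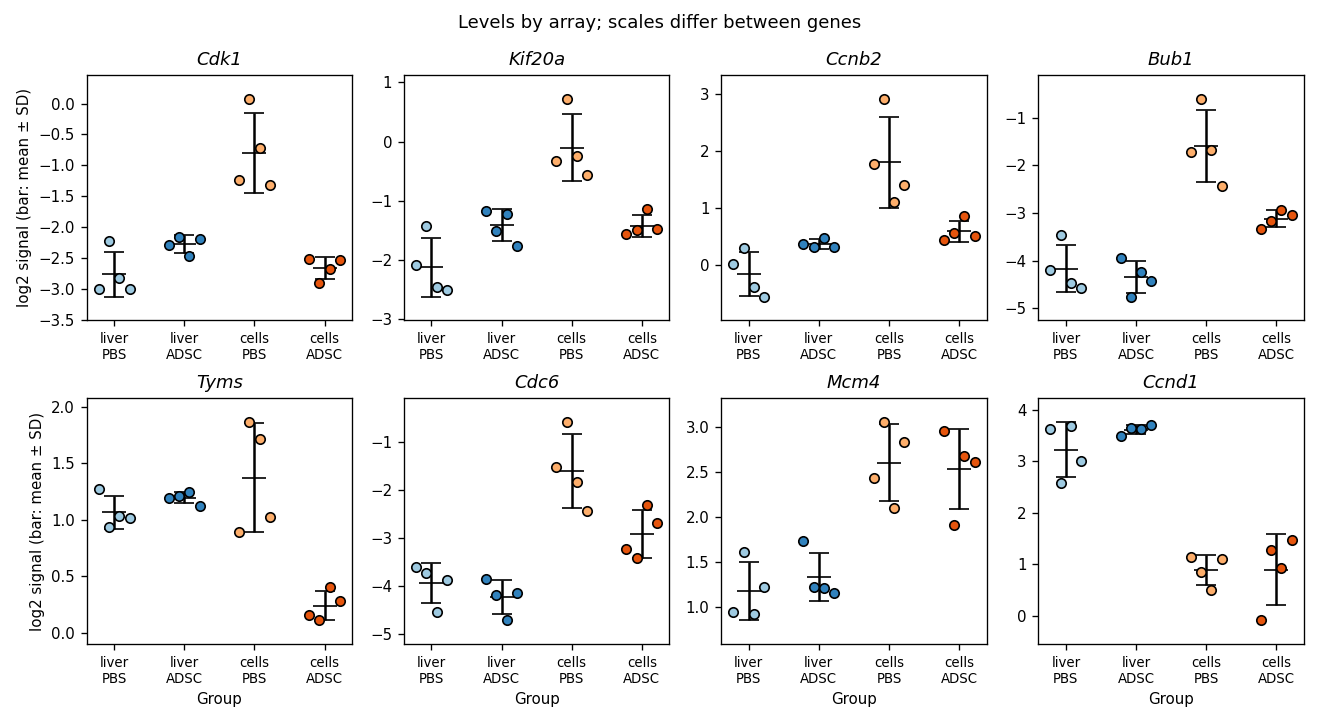
Log2 signal of 8 members by array (points) in the 4 groups, with the mean and SD of 4 arrays; each panel has its own scale. Cdk1, Kif20a, Ccnb2, Bub1 and Tyms show ADSC arrays of inflammatory cells below all PBS arrays, while Mcm4 and Ccnd1 overlap.

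The phases were compared by the size of their differences. In inflammatory cells the median ADSC minus PBS difference was -0.73 over 22 mitotic genes and -0.35 over 13 S phase genes, against 0.032 over all genes tested. Estimates were below 0 for 21 of 22 mitotic and 12 of 13 S phase genes, against 47.1% of all genes. At an unadjusted p under 0.05 stood 11 of 22 mitotic and 5 of 13 S phase genes, against 3737 of all 20179 genes tested. With normexp background correction the medians were -0.40 and -0.39, so the gap between the phases was -0.012 in place of -0.37. Without PBS 12 they were -0.47 and -0.22. Within scan day 2 (2 PBS and 2 ADSC arrays) the medians were -1.38 for mitotic and -0.62 for S phase genes, and within day 3 (1 PBS and 2 ADSC) -0.43 and -0.10. On slides 2 and 3, with 1 array of each group, the mitotic medians were -0.66 and -1.90 and the S phase medians -0.65 and -0.74. With slide as a random block, 9 members passed, all lower: Cdk1, Kif20a, Bub1, Bub1b, Ccnb2, Melk, Tpx2, Tyms and Cdc6. Over the alternatives, single arrays left out aside, all genes called ranged from 0 to 821. The 9 members are therefore not to be set against the share called in the main fit. The main fit called 246 of 20179.

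**Figure D4:**
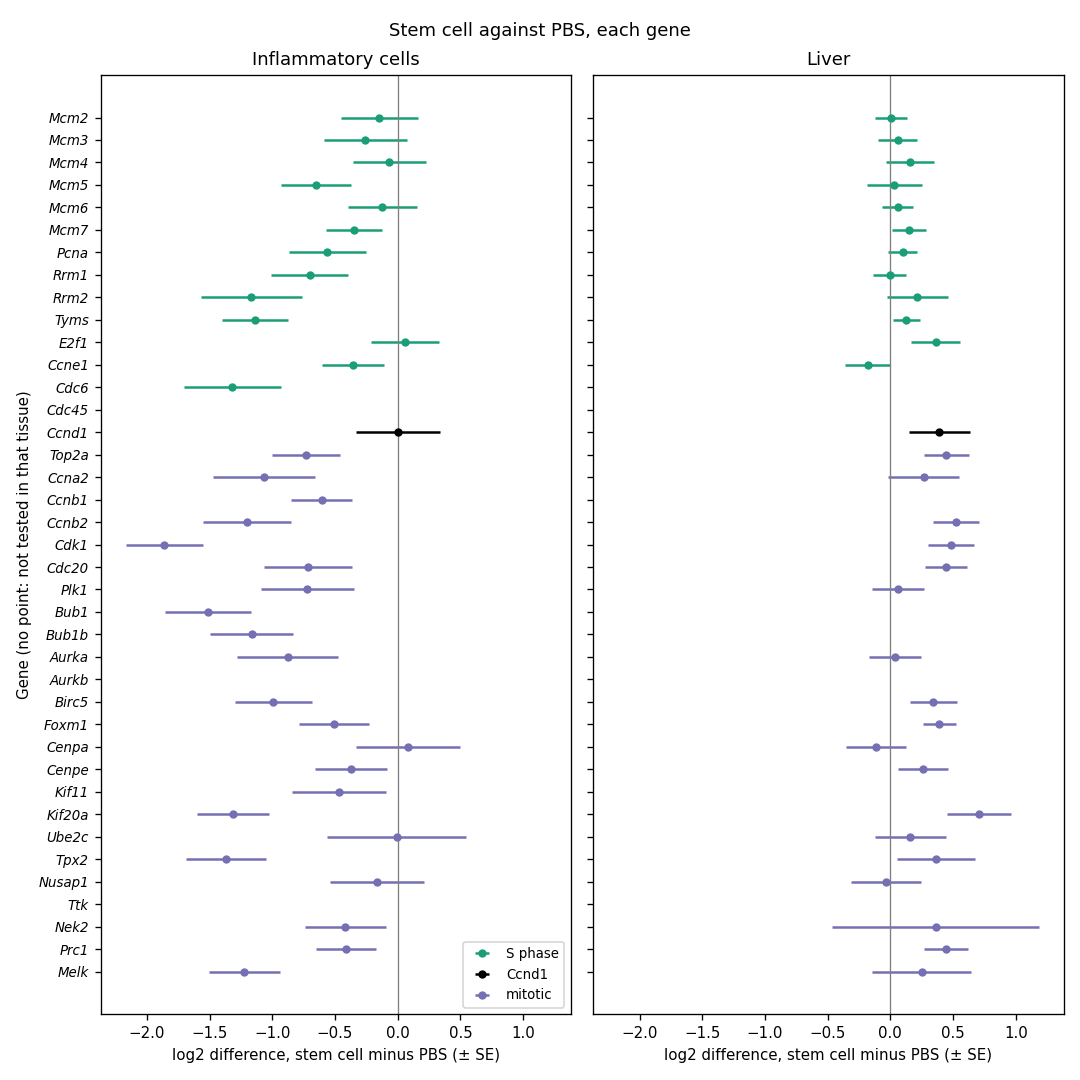
Fitted log2 difference, ADSC minus PBS, with its SE for each member (rows) in inflammatory cells (left) and liver (right), 4 arrays a group; S phase, Ccnd1 and mitotic genes are coloured apart. Points lie mostly left of 0 in inflammatory cells, with Cdk1 farthest at -1.86, and mostly right of 0 in liver, where no member passed.

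The mean over the 23 mitotic genes tested was -0.20, 0.69, -0.57 and -0.57 on inflammatory cell PBS arrays 11 to 14 and -1.16, -1.01, -0.86 and -0.95 on ADSC arrays 7 to 10. The groups did not overlap. The mean over the 13 S phase genes tested was 0.89, 1.63, 0.73 and 0.91 on PBS arrays and 0.65, 0.23, 0.72 and 0.49 on ADSC arrays, so that PBS 13 and ADSC 9 nearly met. The mitotic mean minus the S phase mean overlapped, at -1.48 to -0.94 in PBS and -1.81 to -1.23 in ADSC. PBS 12 was the highest of the 4 PBS arrays for 24 of 24 mitotic and 13 of 14 S phase genes.

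Markers of granulocyte precursors, bone marrow cells that divide, moved with the mitotic genes. All 5 measured of 6 listed (Elane, Mpo, Ctsg, Prtn3 and Ms4a3) fell and passed in inflammatory cells, with a median of -4.18. Their mean level was 3.03, 4.50, 2.21 and 2.06 on PBS arrays, with 5 of 5 above background, and -0.93, -0.50, -0.85 and -1.65 on ADSC arrays, with 4 or 5 above background. PBS 12 was the highest for these markers too. All 10 mature neutrophil markers tested had an estimate below 0 and 8 passed, with a median of -3.62. Of 5 Kupffer cell markers 4 lay below 0 and 1 passed (median -1.70). Of 7 monocyte and macrophage markers 7 lay below 0 and 2 passed (median -1.14). Among all genes 1.09% passed as lower. The 6 B cell, 7 erythroid and 6 T cell markers had medians of 0.99, 0.78 and 0.12 and none passed. The 6 NK and cytotoxic markers had a median of -0.46, with 5 below 0. For 3 germinal centre B cell markers the median was -0.31, with 2 below 0. For 5 plasma cell markers it was 0.27, with 2 below 0, and none of these lists held a gene that passed. The 7 hepatocyte markers had a median of 0.70, with group means of 1.33 in PBS and 2.12 in ADSC, and the 10 exocrine pancreas markers a median of -2.89 with 10 of 10 below 0, and none of either list passed. In liver the 4 precursor markers tested had a median of -3.94 with none passing, and their mean level was -2.10 to 2.19 in PBS and -4.37 to -2.94 in ADSC, while 16 of 18 mitotic estimates there lay above 0. The part of these cells in the cell cycle values was not tested.

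**Figure D5:**
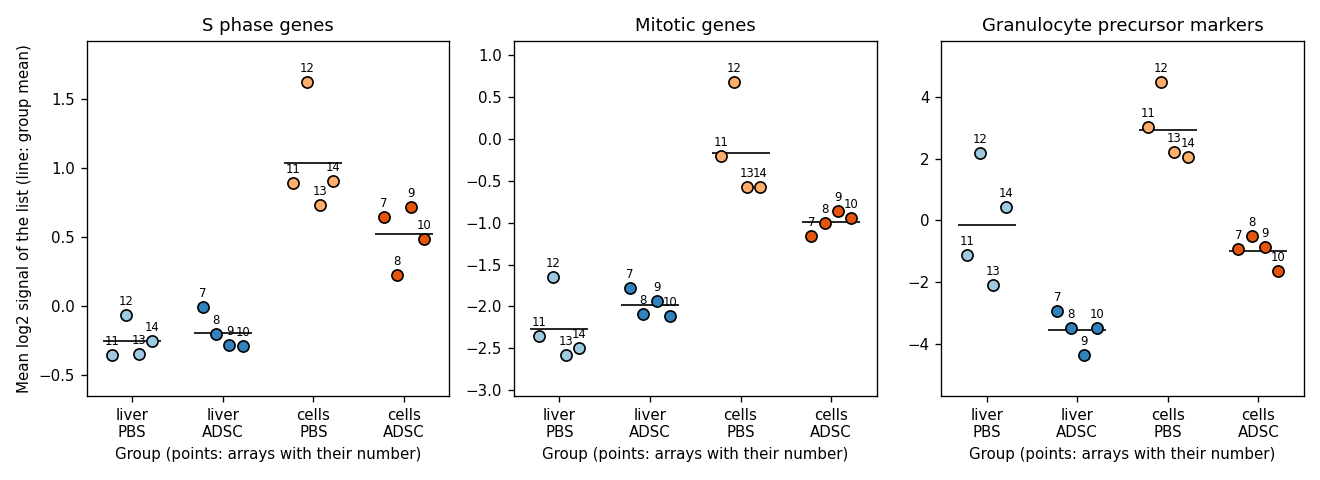
Mean log2 signal per array over the S phase genes, the mitotic genes and 5 granulocyte precursor markers (panels) in the 4 groups; points are arrays with their number and lines are group means. In inflammatory cells all ADSC points lie below all PBS points in the 3 panels, and in liver only the marker panel shows that separation.

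In liver, ADSC was set against PBS in the same way, and no member passed. Of 31 members tested limma called 0, against 0% of 17331 genes, while 7 members and 806 genes had an unadjusted p under 0.05. The mitotic estimates were mostly above 0, with 16 of 18 positive and a median of 0.35, against 0.039 for all genes, of which 40.2% were below 0. The S phase median was 0.078 over 12 genes. Liver PBS 11, 12 and 14 were scanned on day 3 and ADSC 8 and 10 on day 1, so only day 2 held both groups. On the other days treatment and scan day cannot be told apart. Within scan day 2, with 1 PBS and 2 ADSC arrays, the medians were 0.59 and 0.19.

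The 7 members were Foxm1, Ccnb2, Kif20a, Cdc20, Cdk1, Prc1 and Top2a, all mitotic. Foxm1, a transcription factor of G2 and mitotic genes, was at -2.72, -2.79, -2.53 and -3.01 on PBS arrays and -2.40, -2.45, -2.17 and -2.47 on ADSC arrays, without overlap (0.39 ± 0.13, limma adjusted p = 0.998). Ccnb2 was at 0.02, 0.30, -0.37 and -0.55 against 0.37, 0.31, 0.49 and 0.32, with PBS 12 just below ADSC 8 and no overlap (0.52 ± 0.18, limma adjusted p = 0.998). These were 2 of 18 mitotic genes, against 1.69% of all genes without overlap in that direction. None were lower without overlap (0 of 18), against 1.23% of all genes. Kif20a was at -2.08, -1.43, -2.46 and -2.50 against -1.17, -1.51, -1.22 and -1.76 (0.71 ± 0.25), with PBS 12 above ADSC 8 and ADSC 10. Cdk1 was at -3.00, -2.23, -2.82 and -3.00 against -2.29, -2.16, -2.48 and -2.19 (0.48 ± 0.18), with PBS 12 again inside the ADSC range. Cdc20, the activator of the anaphase-promoting complex, differed by 0.44 ± 0.17, Prc1, which bundles midzone microtubules, by 0.44 ± 0.17, and Top2a by 0.45 ± 0.18.

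PBS 12 was the highest liver PBS array for 20 of 24 mitotic genes, and ADSC 7 the highest ADSC array for 15 of 24. The S phase genes with the smallest p in liver were E2f1 (0.36 ± 0.19), Tyms (0.13 ± 0.11), Mcm7 (0.15 ± 0.14), Ccne1, which encodes cyclin E1 (-0.18 ± 0.18), Rrm2 (0.21 ± 0.24) and Pcna (0.10 ± 0.12), each with a limma adjusted p of 0.998. Ccnd1 was at 3.64, 2.57, 3.69 and 3.00 against 3.49, 3.65, 3.62 and 3.70 (0.39 ± 0.24), and turned to -0.13 with scan day as a term. The 8 members with fewer than 4 liver arrays above background were Cdc6, Cdc45, Ccnb1, Bub1, Bub1b, Aurkb, Kif11 and Ttk, and they were not tested.

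The ADSC effect in inflammatory cells minus that in liver was tested as 1 contrast over all 16 arrays. Cdk1 was again the 1 member of 37 that passed, against 0.0316% of 22147 genes, at -2.35 ± 0.38 (limma adjusted p = 0.0487). It was -1.86 in inflammatory cells and 0.48 in liver. The liver part rests on groups mostly scanned on different days. The call was lost when same numbers were taken as pairs, as described at the end. The call depended on many single arrays: it was kept on leaving out PBS 11, PBS 12, PBS 14 or ADSC 7 of the inflammatory cells and lost on leaving out any other of the 16, with adjusted p up to 0.135. Kif20a (-2.02 ± 0.40, limma adjusted p = 0.0804), Ccnb2 (-1.73 ± 0.43, 0.192), Tpx2 (-1.74 ± 0.47, 0.224), Top2a (-1.18 ± 0.33, 0.24) and Birc5 (-1.33 ± 0.38, 0.243) followed. Of S phase genes Tyms came nearest, at -1.26 ± 0.29 (limma adjusted p = 0.124), and then Rrm2 (-1.38 ± 0.51, 0.396), Cdc6 (-1.02 ± 0.50, 0.508), Rrm1, Mcm7 and Pcna (-0.70, -0.50 and -0.66). The median was -1.18 over 23 mitotic genes and -0.50 over 13 S phase genes, against -0.026 over all. With normexp the mitotic median was -0.57. Ccnd1 differed by -0.39 ± 0.44.

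Members also varied together around their group means. Over the 8 inflammatory cell arrays the median correlation of deviations was 0.68 between mitotic genes, 0.56 between S phase genes and 0.52 across the phases, against -0.050 between members and all genes tested. Over the 8 liver arrays these were 0.70, 0.53, 0.54 and -0.036. The values describe pairs of genes measured on the same arrays, which share their signal scale and, in PBS, the high array 12.

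Other cell cycle genes were taken from 5 lists: other mitotic genes, replication origin and fork, cyclins and CDKs, pocket proteins with E2F and MYB, and CDK inhibitors. Of 101 listed 91 had a probe. Of 83 tested in inflammatory cells 1 passed, near the share of 1.22% over all genes. That 1 was Cdca3, a trigger of mitotic entry. It was at 0.61, 1.97, 0.49 and 0.16 on PBS arrays and -1.11, -1.24, -0.66 and -0.83 on ADSC arrays, and fell by 1.77 ± 0.36 without overlap (limma adjusted p = 0.0448). The call was lost on leaving out any 1 array other than PBS 14, up to an adjusted p of 0.112. It was lost too under 6 of 9 other alternatives. Among these were normexp (0.101), no filter (0.1), the mean of probes (0.118) and leaving out the pancreas-rich arrays (0.136). The median was -0.72 over 26 other mitotic genes, -0.23 over 26 replication genes, -0.39 over 12 cyclins and CDKs, -0.18 over 13 pocket protein, E2F and MYB genes and 0.0038 over 6 CDK inhibitors. In liver 0 of 71 passed, 9 of them at an unadjusted p under 0.05, and the median over the 71 was 0.064. The smallest p in each liver list belonged to Cenpk (0.40 ± 0.11), E2f2 (-0.66 ± 0.19), Cdc25a (-0.54 ± 0.18), Mcm8 (0.30 ± 0.11) and Cdkn1c (0.38 ± 0.16).

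Of the 9 genes with several probes, 5 had all of them on 1 side of 0 in inflammatory cells and 4 did not. The second probe of Cdk1 was above background on 1 of the 8 arrays and differed by 0.71. That of Kif11, the kinesin that separates spindle poles, was above background on 2 arrays and differed by 1.90, against -0.47 for the brighter probe. The second probe of Ccne1, above background on all 8, differed by 0.12 ± 0.26 against -0.35 ± 0.25, and that of E2f1, above background on 3, by -0.57 against 0.06. Both Tyms probes lay below 0, at -1.14 ± 0.26 and -0.99 ± 0.27, as did the 3 probes of Ccnb1 (-0.61, -0.54 and -0.16) and both of Top2a (-0.73 and -0.14). Averaging all probes of a gene left 0 members called, with Cdk1 at -0.58 (limma adjusted p = 0.398). In liver the second probes of Top2a, Cdk1 and Ccne1 differed by -0.24, -0.075 and 0.089, against 0.45, 0.48 and -0.18 for the probes used. They were above background on 1, 0 and 4 of the 8 liver arrays. The second E2f1 probe, above background on all 8 liver arrays and brighter there, differed by 0.17 against 0.36.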

How the data were processed

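The 16 scanner files, 1 per sample, hold processed signal intensities that the authors deposited. Per the file headers, spots were read with Agilent Feature Extraction 10.5.1.1. The columns hold a background-subtracted signal, and scale differs between arrays, with a 75th percentile of 124 to 552. The deposited value table holds the same intensities (largest relative difference 0). Outlier flags (71 to 124 spots per array) and background flags are other columns the authors deposited, and outlying spots were left out. After log2, the 75th percentile over 41174 probes was subtracted on every array. RefSeq accessions (GRCm38.p6) named 23374 probes.

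Testing required a probe flagged above background on 4 or more arrays in a fit. Fits used limma 3.58.1 in R 4.3.3 (lmFit, eBayes, Benjamini-Hochberg over all genes tested, threshold 0.05), with 8 arrays for each treatment comparison and 16 with 4 group means otherwise. A bound written as at least sets the brighter mean against, per array, the higher of the dim probe and the lowest signal above background. Each fit was tested on simulated data with 100 genes changed by 1 log2 unit and 100 by 2. In the inflammatory cell fit 15% and 78% of these passed, and in the liver fit 60% and 86%. For the difference between sample types 9% and 56% passed, and for inflammatory cells against liver 69% and 97%. A change of 1 log2 unit was thus mostly missed in inflammatory cells and in the difference. Not passing there does not show that a gene was unchanged.

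The members and lists were chosen with earlier results of these data known. Named genes were members that passed, 6 per phase with the smallest p in each treatment comparison, the 3 largest and smallest differences per phase between sample types, genes whose probes disagreed, and for other lists those passing or the smallest p. Others were chosen after their values were seen. Alternatives were quantile and normexp normalization, a percentile over detected probes, other filters on dim probes, the mean of probes, slide and scan day terms, a replicate block and leaving out arrays. Array number limits the precision.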

Additional observations from a re-analysis of the deposited data

Results flagged for a closer look

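In 168 sets of 4 arrays (39 members and 3 list values in 4 groups), 5 held a value far from the other 3, where chance flags about 1 in 20 groups. Mcm4, a helicase subunit, was at 1.73 on liver ADSC 7 and between 1.16 and 1.22 on the others. Rrm2 was at -1.68 on liver PBS 12 and between -2.47 and -2.43 on the others, and Plk1, a mitotic kinase, at -0.17 on the same array and between -1.10 and -1.01 on the others. Ttk was at -1.37 on liver ADSC 8 and between -5.81 and -5.64 on the others, with 1 of the 4 arrays above background. Nek2 was at -3.32 on inflammatory cells ADSC 8 and between -2.99 and -2.93 on the others.

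The ADSC effect on Cdk1 differed between the sample types by -2.35 in the test of the difference itself. Ccnb2 arrays separated without overlap in opposite directions, lower with ADSC in inflammatory cells and higher in liver, and the effects differed by -1.73, which did not pass (limma adjusted p = 0.192).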

How the results depend on the processing

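No member was called higher with ADSC in either sample type under any alternative run. In inflammatory cells the count of members lower, 1 in the report, was 3 with quantile normalization or a probe above background on every array, 9 with slide as a random block, 0 with the mean of probes or without the 3 arrays rich in pancreatic transcripts (an alternative chosen after seeing the data), and 0 to 3 on leaving out 1 array. Under normexp the 1 called was Tyms. All genes called moved as well, from 0 to 821 over these alternatives and from 71 to 511 on leaving out 1 array, against 246 in the main fit. The mitotic minus S phase median moved to -0.012 with normexp. For the difference between sample types the count was 0 with normexp, the percentile over detected probes, no filter, the mean of probes, slide, scan day or without the pancreas-rich arrays, 2 with a probe above background on every array, and 0 to 2 on leaving out 1 array. There normexp gave a mitotic median of -0.57 and a gap of -0.15 between the phases, and the mean of probes a gap of -0.39. For inflammatory cells against liver normexp gave medians of 0.68 (S phase) and 0.94 (mitotic) and a gap of 0.26. The detected percentile gave 1.26 for S phase genes and, over all genes, a median of 0.68 in place of 0.36, while a probe above background on every array gave -0.093. Members lower there were 1 with the detected percentile, no filter, the mean of probes or without the pancreas-rich arrays, and 1 to 2 on leaving out 1 array.

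Some directions turned. In inflammatory cells E2f1 was -0.11 (quantile), -0.26 (mean of probes) and -0.033 (slide), and -0.14 to 0.27 on leaving out 1 array. Ccnd1 was -0.051 (normexp), -0.17 (slide) and -0.27 (without pancreas-rich arrays), and -0.19 to 0.33 on leaving out 1 array. Kif11 was 0.066 (normexp) and 0.72 (mean of probes). In liver scan day as a term gave -0.034 for E2f1, -0.13 for Ccnd1 and 0.29 for Cdkn2d. Nek2 against liver was 0.074 with normexp and 0.070 with the detected percentile, and -0.43 to 0.087 on leaving out 1 array. Over the alternatives its lowest value was -1.11 and its lowest limma adjusted p 0.0347, so its call depended on the processing too. The causes were not tested.

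The replicate block, which takes the same number in liver and inflammatory cells as a pair, left 0 members called for the difference, with Cdk1 at -2.35 (limma adjusted p = 0.0552), and 1 lower against liver. Same-numbered arrays correlated at -0.06 to 0.17, and the own number was the best partner for 4 of 8, each among 4 candidates. This check does not exclude pairs. The main fits took the arrays as independent, and whether the numbers mark the same animals is not settled. Signal over background limits Cdk1, Bub1 and Kif11, each above it on 2 of 4 inflammatory cell ADSC arrays.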
